A study of Mus musculus with 2 samples.

Results

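Pparg and 8 genes that handle lipids were examined, namely Enpp2, Mgll, Fabp5, Cd36, Plin2, Cpt1a, Abca1 and Abcg1. They were chosen by name with earlier results of these arrays in view, above all the signals of the same probes in both cultures, and their probes were those whose RefSeq accession in the scanner output belonged to 1 of the 9 genes. Of the 9 genes, 8 had a probe (11 probes in all), out of 18434 genes named in this way on the arrays. The same 2 arrays that brought the list together give every value below, so all values are descriptions. RNA came from CD4 T cells purified from the spleen of C57BL/6 mice by magnetic sorting, stimulated through the T cell receptor and CD28 for 2 days and cultured for 3 more. To the Th9+IFNgamma culture were added 10 ng/ml of IFN-gamma and 3 ng/ml each of IL-4 and TGF-beta. To the Th9 culture were added 10 ng/ml of IL-4, 3 ng/ml of TGF-beta and 1 µg/ml of an antibody that blocks IFN-gamma. The conditions thus differed in IFN-gamma, in the IL-4 dose and in the antibody at once, and these cannot be told apart. Each condition was read on 1 single-colour array, the number of mice behind a culture is not given, and no test between conditions was possible.

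PPAR-gamma, the product of Pparg, is a nuclear receptor that binds fatty acids and their derivatives, pairs with a retinoid X receptor (RXR) and switches on genes for the uptake, storage and burning of lipids. IL-4 induces Pparg through STAT6 in macrophages and in T cells, and the receptor has been linked to Th2 cells and to T cells that make IL-9. The other genes act at successive steps. Cd36 and Fabp5 take up and carry fatty acids, Plin2 coats lipid droplets, Mgll frees fatty acids from monoacylglycerol and Cpt1a admits them to mitochondria. Enpp2 makes the signalling lipid lysophosphatidic acid, and Abca1 and Abcg1 export sterols.

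Promoter sequences of 6 of the 9 genes (9 start sites) were matched by symbol to RefSeq on build GRCm38.p6, and the 250 bases before each start were searched on both strands. The hexamer AGGTCA, to which PPAR and RXR bind as a repeat, was found before 5 of the 9 starts, against 14.0% of 32851 mouse promoters. The 5 starts lie in 4 of the 6 genes and include starts 1 and 2 of Pparg. Start 3 of Pparg had no match, and no share by gene was computed. The PPAR repeat itself, 2 copies of AGGTCA with 1 base of any kind between them, was found before 0 of the 9 starts (0.0335% of all promoters), and so was the LXR repeat, the same hexamers with 4 bases between them (0.0152%). The STAT6-type palindrome, TTC and GAA with 4 bases between them, was found before 0 of 9 (5.85%). The windows of Mgll and Abca1 held no hexamer, and each had an E-box, CACGTG, before 1 start (6.02% of all promoters). These are matches of letters only. The PPAR and LXR repeats as searched are so rare that their absence from 9 windows carries no information. Elements with other letters or outside the 250 bases were not searched. The stretches around each match are shown because they set Pparg, Plin2, Cpt1a and Cd36, which have the hexamer, apart from Mgll and Abca1, which do not. Each is written 5′ to 3′ on the strand of the gene, with capitals marking the hexamer, its complement TGACCT, or the E-box.
Pparg start 1, chr6:115361092-115361143, plus strand, match 28 bases before the start: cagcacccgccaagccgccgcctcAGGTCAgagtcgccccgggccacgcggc
Pparg start 2, chr6:115362316-115362348, plus strand, match 9 bases before the start: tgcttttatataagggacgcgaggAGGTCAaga
Plin2, chr4:86670248-86670301, minus strand, match 218 bases before the start: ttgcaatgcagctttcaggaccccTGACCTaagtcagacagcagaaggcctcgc
Cpt1a, chr19:3323183-3323236, plus strand, match 94 bases before the start: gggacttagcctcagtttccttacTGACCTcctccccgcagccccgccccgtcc
Cd36, chr5:17836095-17836146, minus strand, match 228 bases before the start: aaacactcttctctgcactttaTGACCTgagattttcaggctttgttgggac
Mgll start 1, chr6:88724344-88724397, plus strand, match 44 bases before the start: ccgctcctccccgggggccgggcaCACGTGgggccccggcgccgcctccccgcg
Abca1, chr4:53160013-53160066, minus strand, match 147 bases before the start: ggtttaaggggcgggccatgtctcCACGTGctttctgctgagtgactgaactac

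All signals given are fluorescence after scaling, which set the 75th percentile of each array to 599, and they serve to compare a probe between arrays, never probes with each other. Flagged as well above background were 60.6% of 41171 probes for Th9+IFNgamma and 59.9% for Th9, and 0 spots were saturated. A probe with that flag is said to clear background, and a gene counts as measured when a probe did on both arrays, and its value is that of its brightest such probe. Differences are given as log2 of Th9+IFNgamma minus Th9, and a gene is called lower or higher where it differed by 2-fold or more. Of 9 T cell markers, 8 had a probe (Trac had none) and all 8 were measured and within 2-fold. Cd3e read 1789 in Th9+IFNgamma and 1544 in Th9, Cd4 read 502 and 444, and Cd3d, Cd3g, Cd28, Cd5, Lck and Thy1 differed by 1.58-fold or less.

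Pparg, Mgll and Abca1 were lower in Th9+IFNgamma and Enpp2 was detected in Th9 alone, whereas Plin2, Cpt1a and Abcg1 lay within 2-fold. Thus 3 of the 6 measured members were called lower, against 7.42% of all 12272 measured genes. Called higher were 0 of 6, against 5.15% of all genes. The members' median log2 difference was -0.89, and that of all genes was -0.01. Since the members were gathered from this same comparison, nothing is read from these shares. The gene lists below were also chosen with earlier results of these data known. Their counts stand beside the same all-gene shares, and nothing is read from them either. In RNA of whole cultures, fewer cells of a type and less RNA per cell cannot be told apart. Nearest to the 2-fold limit were Abcg1, short of it at 1.82-fold, and Abca1, past it at 2.71-fold.

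**Figure D1:**
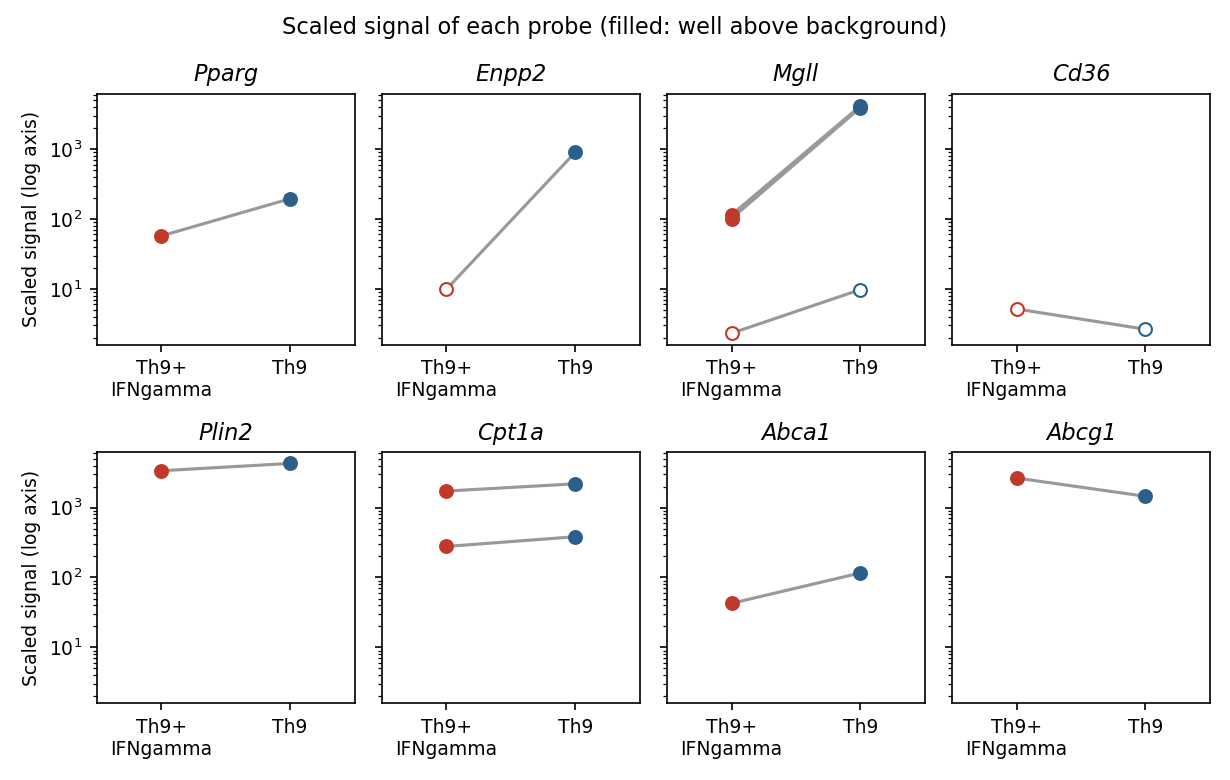
Scaled signal of each probe of 8 members on the Th9+IFNgamma array (left in each panel) and the Th9 array (right), on a logarithmic axis; each line joins the values of 1 probe, filled points are well above background and open points are not. Lines of Pparg, Enpp2, Mgll and Abca1 run upward to Th9, those of Plin2 and Cpt1a are nearly level, and Abcg1 is higher in Th9+IFNgamma (2647 against 1451).

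Pparg itself was 3.40-fold lower in Th9+IFNgamma, a log2 difference of -1.77, at a scaled signal of 57.3 in Th9+IFNgamma and 195 in Th9. It was read by 1 probe printed 10 times on each array, which gives its signal at 10 places. In Th9+IFNgamma the 9 spots used ran from 50.2 to 64.1 with a median of 58.4. In Th9 the same 9 spots ran from 186 to 208 with a median of 193. The ranges do not overlap. Of these 9, the spot pair with the smallest difference gave a 3.00-fold lower signal in Th9+IFNgamma, while the largest was 3.84-fold. The SD of the log2 difference over spots was 0.11. That spread is between spots of a single hybridisation and holds nothing of the variation between mice, cultures or labellings. The tenth spot was flagged as an outlier on the Th9+IFNgamma array and left out. It read 70.0 in Th9+IFNgamma and 191 in Th9, a log2 difference of -1.45, smaller in size than that of any spot used.

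Although low, the Pparg signal stood clear of the array's floor in both cultures. The raw signal averaged 121 in Th9+IFNgamma and 243 in Th9 over a local background of 50.4 and 49.4, and the brightest negative control spots read 70.5 in Th9+IFNgamma and 67.0 in Th9. The size of the difference depends on the processing. With normexp background correction, which here adds an offset of 50 to each signal, the difference of Pparg was 2.21-fold (log2 difference -1.14). Such an offset by itself makes differences of dim probes smaller, here and wherever normexp values are given below. Its part was not separated from that of the background estimate. Of the 12272 measured genes, 375 (3.06%) had a more negative difference than Pparg. Among 4409 genes of similar brightness (mean scaled signal from 64 to 1024), 11.1% were called lower. The 3 genes whose difference was nearest to that of Pparg were Rapgef3 (-1.77), Batf, an AP-1 factor of helper T cells (-1.76), and Aifm2 (-1.78). With 2 arrays this likeness is that of a single number, shared by 34 genes within 0.05 log2 units.

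**Figure D2:**
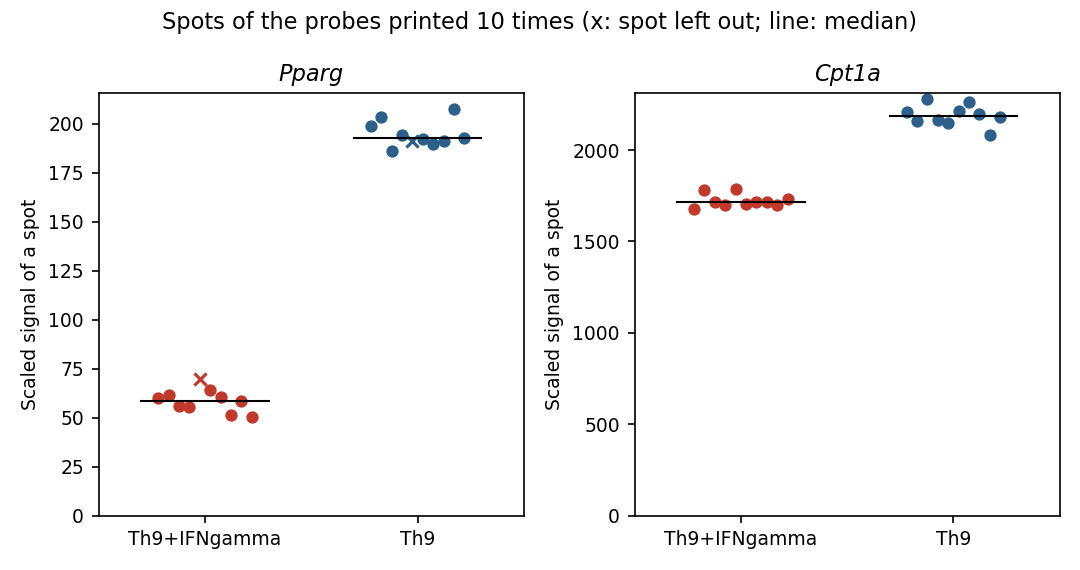
Scaled signal of single spots of the Pparg and Cpt1a probes that are printed 10 times, on the Th9+IFNgamma array (left in each panel) and the Th9 array (right); horizontal lines are medians and crosses mark the spot left out. Spots of the arrays do not overlap for either gene, at medians of 58.4 and 193 for Pparg and 1717 and 2188 for Cpt1a.

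The RXR partners and PPAR relatives of PPAR-gamma differed less where measured. Rxra, its RXR partner, was at 2224 in Th9+IFNgamma and 2775 in Th9 (1.25-fold lower), and its other probe gave a log2 difference of -0.89. Ppard, a second PPAR, was dim at 27.5 in Th9+IFNgamma and 26.0 in Th9. Ppara failed to clear background in either culture. Of 20 measured genes for PPARs, RXRs, coregulators and C/EBP factors, 2 were called lower, Pparg and Cebpd, and 0 higher, and the median log2 difference was -0.04. Cebpd encodes a factor that precedes Pparg in fat cell formation, and it read 105 in Th9+IFNgamma and 338 in Th9 (3.22-fold lower). With normexp Cebpd stood at -1.15, beside -1.14 for Pparg.

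Of 19 measured genes described as PPAR targets in other tissues, Plin2 and Cpt1a among them, 15 were within 2-fold. Called lower were 4 (3 with normexp), against 7.42% of all genes, and called higher were 0, against 5.15%. The median was -0.51, against -0.01 for all genes. The 4 were Tgm2, a transglutaminase (4985 in Th9+IFNgamma against 30700 in Th9), Hilpda, an inhibitor of droplet lipolysis (5587 against 15972), Chil3, a chitinase-like protein (28.3 against 107, and 2.08-fold lower with normexp in place of 3.77-fold), and Fabp4, the fatty acid-binding protein of fat cells (39.5 against 121). With normexp Fabp4 stood at -0.94, short of 2-fold. Angptl4, a secreted inhibitor of lipoprotein lipase, was 1.42-fold lower (2058 against 2932). Olr1, a receptor for oxidised lipoprotein, was detected in Th9 alone. Against the lowest signal that cleared background in Th9+IFNgamma, it was 5.21-fold lower there (2.11-fold with normexp). Sizes of this kind are called bounds, though a probe without the flag can read above that floor. Gpd1, an enzyme that supplies glycerol phosphate, was detected in Th9+IFNgamma alone, with a bound of 3.68-fold higher, or 1.34-fold with normexp. Detection in Th9+IFNgamma alone with a bound of this kind past 2-fold was found for 1.2% of 13227 genes.

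Genes of IL-4 and its receptor, which act upstream of Pparg, and cytokine genes of the same cells gave differences in both directions. Il4 RNA was 21.4-fold lower in Th9+IFNgamma (130 against 2786) and Il9 10.5-fold lower (5661 against 59619). Il5 was detected in Th9 alone, with a bound of 8.05-fold (2.33-fold with normexp). The IL-4 receptor chain gene Il4ra was 1.31-fold lower (43115 against 56591), Stat6 1.11-fold lower, Gata3 1.24-fold lower and Irf4 1.72-fold lower, all within 2-fold. Il2rg, the shared receptor chain, was 2.20-fold higher (8315 against 3787). Il1rl1, the IL-33 receptor gene, was dim and 1.99-fold lower (42.0 against 83.4). Over the 15 measured genes of this list, 2 were called lower and 1 higher, and the median was -0.31.

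For uptake, the fatty acid receptor gene Cd36 was not well above background in either culture. Its raw signal was 70.5 in Th9+IFNgamma and 63.5 in Th9, against negative control spots that ran up to 70.5 in Th9+IFNgamma and 67.0 in Th9, so no difference can be given for it. Fabp5, the fatty acid-binding protein of skin and immune cells, had no probe matched and was not analysed here. Among 19 other measured genes for uptake, binding and activation of fatty acids, 3 were called lower (0 with normexp) and 1 higher, and the median was -0.03. Over all genes the shares were 7.42% lower and 5.15% higher. The 3 were Fabp4, its relative Fabp3 (34.3 against 113, and -0.92 with normexp) and the lipoprotein receptor gene Lrp1 (119 against 262, and -0.72 with normexp), all of low signal. The gene called higher was Acsl6, an acyl-CoA synthetase (533 against 114, 4.68-fold), whose other probe gave a log2 difference of 1.26. FABP family members resemble each other in sequence, so a probe may take up RNA of a relative.

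Plin2, which encodes the droplet coat protein perilipin 2, lay within 2-fold. It read 3366 in Th9+IFNgamma and 4285 in Th9 (1.27-fold lower, log2 difference -0.35), and 25.4% of all genes had a more negative difference. The extraction software's own error for this difference was 0.20. Plin3, a second coat protein, was 1.41-fold lower (5382 against 7584). Of 25 measured genes for droplets and neutral lipid synthesis, 4 were called lower, against 7.42% of all genes. Called higher were 2, against 5.15%, and 19 were neither. The median was -0.35. The lower ones were Agpat4 (1509 against 5272) and Gpat3 (61.9 against 134, named after its value was seen, and -0.61 with normexp), which are acyltransferases of glycerolipid synthesis, Hilpda, and Dgat1, which makes triacylglycerol (1422 against 3275). Dgat2, its partner enzyme, was 1.94-fold lower by its brightest probe, and its probes ran from -0.96 to 0.51. The higher ones were Lpin2, a phosphatidate phosphatase (2828 against 394, 7.17-fold), and Soat2, a sterol-esterifying enzyme (374 against 176, 2.13-fold, or 0.79 on the log2 scale with normexp).

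Mgll had a larger difference than any other member measured in both cultures. The gene encodes monoacylglycerol lipase, the enzyme that completes the breakdown of triacylglycerol and inactivates the endocannabinoid 2-arachidonoylglycerol. By its brightest probe it read 114 in Th9+IFNgamma and 4132 in Th9, 36.2-fold lower. A second probe for the same transcript read 101 in Th9+IFNgamma and 3916 in Th9, 38.6-fold lower. Both probes thus gave nearly the same size, and Mgll stayed well above background in Th9+IFNgamma by both. The probe annotated to another Mgll transcript failed to clear background on either array (2.32 in Th9+IFNgamma and 9.75 in Th9). Only 9 of the 12272 genes (0.0733%) were lower by 30-fold or more. With normexp Mgll was 25.8-fold lower.

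Other lipases did not share the size of this difference. Of 15 other measured lipases and cofactors, 1 was called lower, Abhd4, a lysophospholipase (4423 against 9073, 2.05-fold), which stood at -0.93 with normexp. Called higher was 1, Abhd2 (399 against 153, 2.61-fold). Pnpla2, which starts triacylglycerol breakdown, read 4488 in Th9+IFNgamma and 4401 in Th9, and Lipe, hormone-sensitive lipase, 375 and 457. Among other enzymes that can hydrolyse 2-arachidonoylglycerol, Abhd6 read 232 in Th9+IFNgamma and 167 in Th9, and Abhd12 read 813 and 564, both higher within 2-fold. Faah, named after its value was seen, read 761 in Th9+IFNgamma and 1114 in Th9, 1.46-fold lower, and its other probe gave a log2 difference of -1.02. In a list of 22 other measured genes for endocannabinoid and eicosanoid metabolism, 5 were called lower and 0 higher, and the median was -0.41. Among all measured genes, 7.42% were called lower and 5.15% higher. All 5 were of low signal. They were Alox15, an arachidonate lipoxygenase (27.8 against 123), Gpr119, a receptor for lipid amides (24.2 against 55.5), Ptgs1, cyclooxygenase 1 (51.2 against 107), and, named after their values were seen, the prostaglandin D synthase gene Hpgds (32.4 against 67.3) and the phospholipase gene Plcb3 (85.1 against 176). With normexp the list, Mgll included, had 2 genes called lower in place of 6, Mgll and Alox15, the last at -1.12 in place of -2.14. Called higher with normexp was 1, the phospholipase gene Plcb2 (named after its value was seen), at 1.06 in place of 0.97. Median scaling gave 3 lower and 1 higher. Alox12, another lipoxygenase, was detected in Th9+IFNgamma alone, with a bound of 4.35-fold (1.53-fold with normexp).

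Cpt1a, which encodes the carnitine palmitoyltransferase that gates entry of long-chain fatty acids into mitochondria, lay within 2-fold by both of its probes. The brighter one, printed 10 times, read 1676 to 1786 in Th9+IFNgamma (median 1717) and 2083 to 2279 in Th9 (median 2188). These ranges do not overlap, and the difference was 1.27-fold lower with an SD of 0.05 log2 units over spots. The other probe read 278 in Th9+IFNgamma and 383 in Th9, 1.38-fold lower. Without scaling between arrays the log2 difference of Cpt1a was -0.19 in place of -0.35. Of 30 other measured genes for mitochondrial fatty acid oxidation, 2 were called lower and 0 higher, and the median was -0.24. They were Crat, a carnitine acetyltransferase (446 against 1227), and Hadh, a dehydrogenase of the oxidation cycle (2148 against 4824), which stood at -0.93 with normexp. Cpt2, which works downstream of Cpt1a, was 1.31-fold lower, and the muscle form Cpt1b was dim and 1.07-fold lower. Of 20 peroxisomal genes 1 was called lower and 0 higher, the oxidase gene Acox3 (1291 against 5859, 4.54-fold). Amacr, named after its value was seen, fell just short of 2-fold lower (987 against 1972). The count of genes called lower was 2 in 5 of the 12 alternative settings, normexp among them. Acox2, a relative of Acox3, was detected in Th9 alone, with a bound of 3.36-fold (1.46-fold with normexp).

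Enpp2 was detected in Th9 alone. It encodes autotaxin, a secreted enzyme that makes lysophosphatidic acid from lysophosphatidylcholine. Its only probe read 9.88 in Th9+IFNgamma, where it was not well above background, and 899 in Th9. With 11.1, the lowest signal that cleared background on the array of Th9+IFNgamma, as the floor, the bound of Enpp2 was 81.0-fold lower. This is no strict limit, since Cd79a read 11.4 on that array without clearing background. The raw signal was 74.0 in Th9+IFNgamma, over a local background of 49.5 and just above the brightest negative control at 70.5, against 944 in Th9. With normexp the bound was 13.6-fold. Of the 13227 genes detected on either array, 1.71% were likewise found in Th9 alone with a bound past 2-fold.

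Other genes of lysophosphatidic acid went both ways. Of 17 measured, 4 were called lower (2 with normexp) and 2 higher (1 with normexp), and the median was -0.44. The shares of all genes were 7.42% lower and 5.15% higher. Enpp1, a relative of Enpp2 that cleaves nucleotides, was 3.62-fold lower (1113 against 4027). Gpr174, a lysophospholipid receptor of lymphocytes, was 4.55-fold lower (42.4 against 193, and -1.24 on the log2 scale with normexp). Its other probe gave a log2 difference of -1.40. The receptor gene Lpar2 was 2.68-fold lower (26.7 against 71.5, and -0.73 with normexp). Plpp2, named after its value was seen, encodes a lipid phosphate phosphatase and was 2.22-fold lower (131 against 291, and -0.88 with normexp). The receptor gene Lpar6 was 3.39-fold higher (786 against 232) and Plpp1, another lipid phosphate phosphatase, 2.33-fold higher (104 against 44.6, a log2 difference of 0.65 with normexp). Gpr34, a lysophosphatidylserine receptor, was detected in Th9+IFNgamma alone, with a bound of 19.4-fold (4.36-fold with normexp).

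The sterol exporters Abca1 and Abcg1 went in opposite directions. Abca1, which loads cholesterol onto lipid-poor apolipoprotein, read 42.7 in Th9+IFNgamma and 116 in Th9, 2.71-fold lower. Its raw signal was 99.5 in Th9+IFNgamma and 166 in Th9 over a local background of 50 and 47.5, and with normexp it was 1.85-fold lower, short of 2-fold. Abcg1, which exports cholesterol to mature lipoprotein particles, read 2647 in Th9+IFNgamma and 1451 in Th9, 1.82-fold higher. Of all genes, 6.58% had a more positive difference than Abcg1. Each was read by 1 spot on each array, with an extraction error of the log2 difference of 0.22 for Abca1 and 0.20 for Abcg1.

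Both exporters are targets of the sterol-sensing LXR receptors, whose genes were close to level, Nr1h2 at 3530 in Th9+IFNgamma and 3018 in Th9, and Nr1h3 at 93.6 and 77.4. Of 28 other measured genes for sterol export and traffic, 3 were called higher and 2 lower, and the median was 0.08. The higher ones included Mylip, a ubiquitin ligase for lipoprotein receptors (577 against 99.9, 5.78-fold), and Smpdl3a, a phosphodiesterase (2363 against 921, 2.57-fold). The other, Pltp, a phospholipid transfer protein, was dim (51.0 against 15.9) and stood at 0.28 with normexp. The lower ones were Ch25h, which makes 25-hydroxycholesterol (27.9 against 132, 4.74-fold, or 2.32-fold with normexp), and Abcg8, near the floor (13.1 against 26.4, and -0.26 with normexp).

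**Figure D3:**
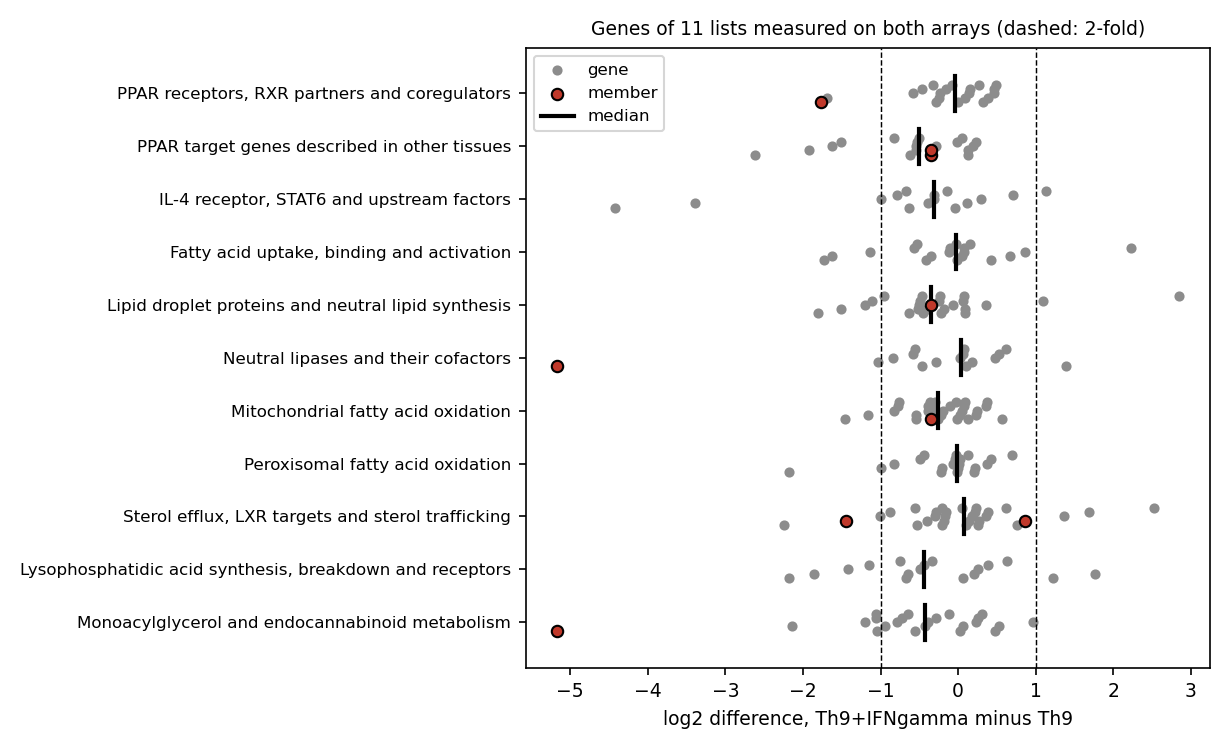
Log2 difference, Th9+IFNgamma minus Th9, of each gene measured on both arrays in 11 lists around the members; red points are members, vertical bars are list medians and dashed lines mark 2-fold. Mgll lies far to the left of the other lipases at -5.18, and the medians of the lists run from -0.51 to 0.08.

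Several members are better known from macrophages and fat cells than from T cells, so markers of these cells were read on the same arrays. Sums below add, for each gene of a list, the highest scaled signal of its probes on each array, genes that did not clear background included. Such a sum can rest on 1 gene. Of 11 macrophage or monocyte markers with a probe, 4 were measured on both arrays, and the list summed to 199 in Th9+IFNgamma and 318 in Th9. Adgre1 made up most of the Th9 sum, and Cd163 (70.8 in Th9+IFNgamma and 2.61 in Th9) went the other way. Adgre1 read 25.8 in Th9+IFNgamma and 186 in Th9 (7.19-fold lower, or -1.45 on the log2 scale with normexp), and Marco 26.0 and 55.9, while Csf1r (34.1 and 34.3) and Cd14 (26.4 and 21.3) were dim and within 2-fold. Lyz2, Itgam, Mrc1, Msr1, Mertk and Fcgr1 cleared background on neither array, Cd163 was detected in Th9+IFNgamma alone (70.8), and Cd68 had no probe matched. Of 8 fat cell markers, Adipoq, Lep, Plin1, Cidec, Cfd and Retn cleared background on neither array, and the other two were Fabp4 and Lipe. Their list summed to 448 in Th9+IFNgamma and 605 in Th9. Of dendritic cell markers Xcr1, Flt3 and Zbtb46 were measured, Itgax and Siglech were not well above background, Clec9a had no probe matched, and the sums were 154 in Th9+IFNgamma and 171 in Th9. Of B cell markers Cd79b read 844 in Th9+IFNgamma and 1187 in Th9, Ms4a1 was measured and within 2-fold, Cd79a was detected in Th9 alone, and Pax5 and Ebf1 were not well above background. Among granulocyte and mast cell markers Fcer1a was measured (59.2 in Th9+IFNgamma and 26.7 in Th9) and Mcpt4 detected in Th9 alone (101), whereas S100a8, S100a9, Elane, Cpa3 and Ms4a2 were not well above background, Ly6g had no probe matched, and the sums were 84.3 in Th9+IFNgamma and 152 in Th9. Natural killer cell markers summed to 38.6 in Th9+IFNgamma and 114 in Th9, and Ncr1 was not well above background. Klra8 read 15.6 in Th9+IFNgamma and 71.4 in Th9, and Klrb1c 20.5 and 39.2. Endothelial markers summed to 294 in Th9+IFNgamma and 124 in Th9, with Cdh5, Kdr and Tek not well above background. Pecam1 made up most of both sums, at 276 in Th9+IFNgamma and 103 in Th9 (2.66-fold higher). With normexp, Klra8 stood at -0.88, Klrb1c at -0.42, Marco at -0.52, Fcer1a at 0.35 and Pecam1 at 0.99, all within 2-fold. The bounds with normexp were 1.83-fold for Cd163 and 2.43-fold for Mcpt4. Cd8a read 1338 in Th9+IFNgamma and 1074 in Th9, and Cd8b1 had no probe matched. The part of such cells in the values of Pparg, Abca1 or the other members was not tested.

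**Figure D4:**
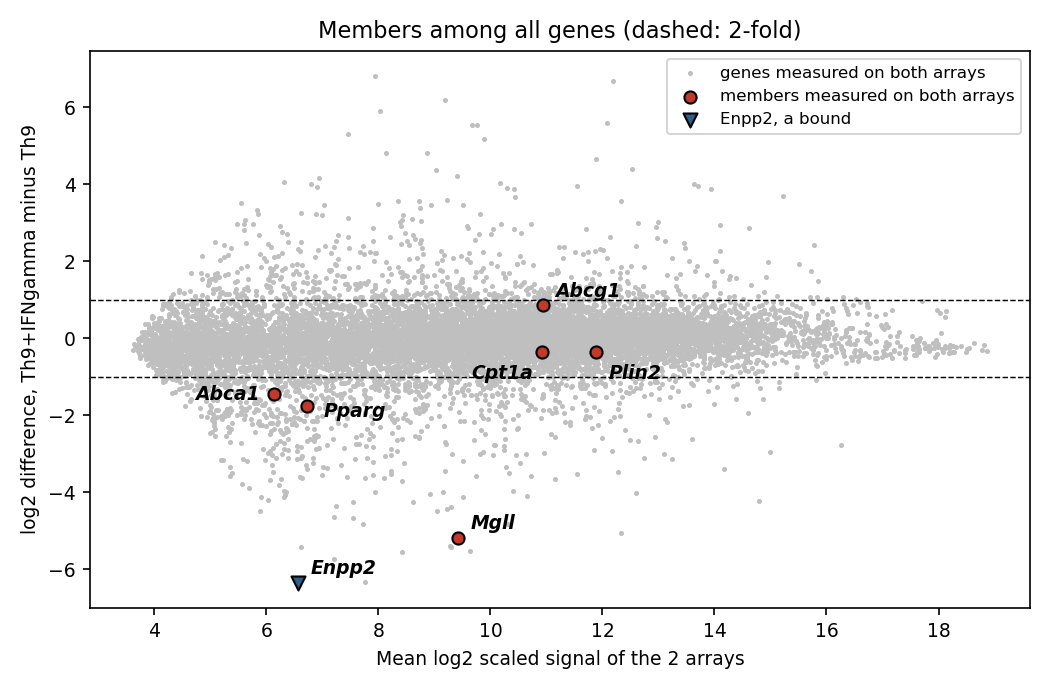
Log2 difference, Th9+IFNgamma minus Th9, against mean log2 scaled signal for the 12272 genes measured on both arrays (grey) and the members (red); the triangle is the bound of Enpp2 and dashed lines mark 2-fold. Mgll and the bound of Enpp2 lie at the lower edge of all genes, Pparg and Abca1 among dim genes below the 2-fold line, and Plin2, Cpt1a and Abcg1 inside it.

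**Figure D5:**
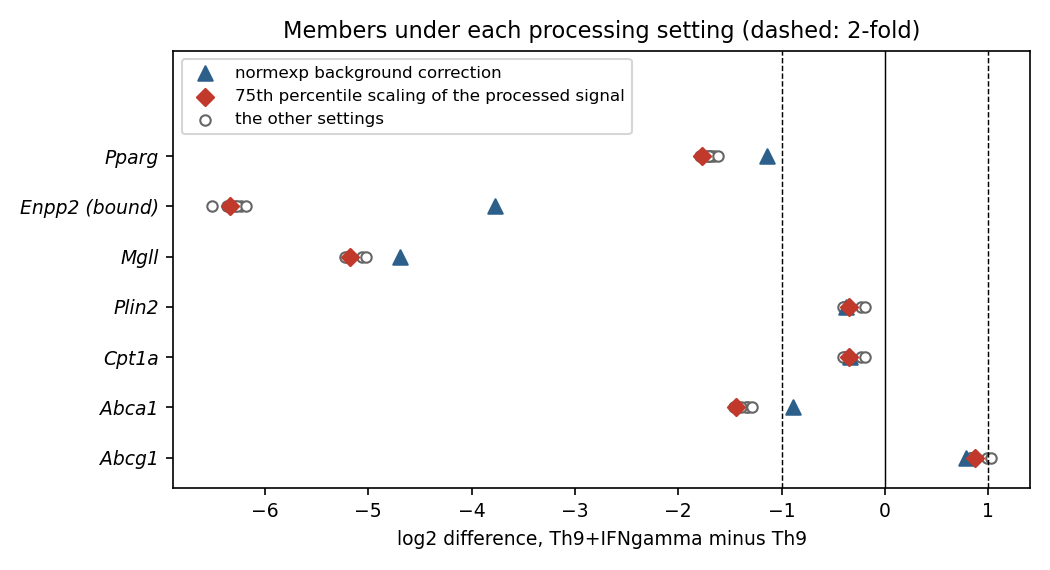
Log2 difference, Th9+IFNgamma minus Th9, of 7 members with 75th percentile scaling (diamonds), with normexp background correction (triangles) and in the other settings (circles); dashed lines mark 2-fold. Pparg, Enpp2 and Mgll stay beyond 2-fold lower in each setting, whereas Abca1 is at -0.89 with normexp and Abcg1 at 1.02 without scaling.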

How the data were processed

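Intensity values were deposited by the authors as Agilent Feature Extraction 10.7.3.1 output (per the file headers; version 10.7 per the submitters' processing notes), background-subtracted and detrended within each array and not scaled between arrays. The deposited flags mark spots well above background and outliers. A second deposited table by the authors holds log2 values, which equalled log2 of a probe's median processed signal minus a constant (SD 2.5e-07 in Th9+IFNgamma and 2.2e-07 in Th9), with column medians of -4.05 and -3.93.

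Outlier and control spots were left out, log2 signals averaged over a probe's spots, and each array scaled on its 75th percentile (632 in Th9+IFNgamma, 567 in Th9). Accessions were matched without version to RefSeq genes of GRCm38.p6. The array headers name another build, so only RefSeq promoter coordinates are given. The normexp alternative (limma 3.58.1, offset 50) used median spot signals. The arithmetic was tested on simulated data.

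Members and gene lists were chosen with earlier results of these data known. Beside the members, named genes are the up to 3 largest 2-fold differences in each direction per list, the up to 2 largest bounds, and 24 genes listed by hand. All cell markers and the 3 genes nearest to Pparg were named as well. Outside these rules, Gpat3, Faah, Hpgds, Plcb3, Plcb2, Amacr and Plpp2 were named after their values were seen. With 1 array per condition no test was made, and the number of arrays limits precision. A marker gene and a promoter motif that were also read are not reported here.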

Additional observations from a re-analysis of the deposited data

How the results depend on the processing

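The 12 alternative settings left 2 to 4 members called lower in Th9+IFNgamma (by 2-fold or more), and the difference of each measured member kept its sign in all 12. Normexp background correction (offset 50) moved Pparg to -1.14, the members' median to -0.63 and the count of all genes called lower to 582. Median scaling gave -1.65 for Pparg. Without scaling between arrays, an alternative chosen after seeing the data, Pparg was at -1.61, the members' median at -0.74 and 1 member (Abcg1) called higher. Without a filter on dim probes, 1788 genes were called lower and 1205 higher. Median scaling, which shifted all genes by 0.11, turned 910 lower and 632 higher genes into 776 and 772. Without scaling the counts were 728 and 866. No paired analysis was possible because each condition has 1 array. Signals close to background limit Abca1, Pparg and the bound of Enpp2.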
